A study of Mus musculus with 2 samples.

Results

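Intermediate monocytes of mouse brown adipose tissue were chosen by their raw UMIs (unique molecular identifiers, each standing for a captured RNA molecule) of genes from both ends of the monocyte range. A member had at least 2 UMIs of Ace, Treml4, Cd300e and Adgre4 together, genes of Ly6C low monocytes, and at least 1 UMI of Ly6c2, which encodes the surface protein Ly6C. Limits on other genes kept macrophages, neutrophils and lymphocytes out: at most 1 UMI of C1qa, C1qb and C1qc, under 2% of UMIs from S100a8 and S100a9, and 0 UMIs of Cd3e and Cd79a. Cells were kept from 200 detected genes upward and up to a mitochondrial share of 10% of UMIs, and of the 4295 kept cells 191 were members, 128 of 2279 in the control library and 63 of 2016 in the AdipoΔ/Δ library. Because the rule asks for UMIs of both kinds of genes, an intermediate position was in part set by the choice.

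The study sequenced single CD45+ Dapi- leukocytes sorted from brown adipose tissue, with 1 library per group (Chromium 3′ chemistry). Both groups were male C57Bl/6 mice with AdipoQ-CreERT2 and ATGLfl/fl, so the controls carried the Cre and the floxed lipase gene as well. Control mice were given vehicle, and AdipoΔ/Δ mice tamoxifen at 10 mg/ml in 200 µL, each by intraperitoneal injection once every 2 days over 1 week and then left for 2 weeks. An age of 16 weeks is given in the labels, although the methods of the study describe younger mice, and how many mice went into a library is not stated. The AdipoQ promoter drives Cre in adipocytes and not in leukocytes, so Pnpla2, the gene of ATGL, does not check the deletion in these cells. The control matrix held 2597 barcodes with 11327187 UMIs and the AdipoΔ/Δ matrix 2381 barcodes with 12028844 UMIs. Both libraries shared 4 barcodes, 0 of them among the members.

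Classical monocytes of the mouse carry much Ly6C on their surface. They need the chemokine receptor CCR2 to reach the blood, and some replace tissue macrophages. Non-classical monocytes carry little Ly6C, depend on the nuclear receptor NR4A1, stay mainly within vessels and crawl along the endothelium. In the mouse, Ly6C low cells arise at least in part from Ly6C high cells, and cells with features of both states have been described in blood, bone marrow and tissues.

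The genes of the rule describe the members and are no finding. Ly6c2 stood at 787 CPM (UMIs of the gene per 1000000 summed UMIs of all members of a library) in control members and 1569 CPM in AdipoΔ/Δ members. Treml4, a receptor of the TREM family, stood at 210.4 and 160.3 CPM, and Adgre4, an adhesion G protein-coupled receptor, at 346 and 302 CPM. Ace, the angiotensin-converting enzyme, reached 204 and 257 CPM, whereas Cd300e, an activating immune receptor, had only 7 UMIs in the members of each library. The non-classical side of the rule was thus carried by Adgre4, Treml4 and Ace. Ly6c1 is a related gene that holds 51.8% of the 31-base words from the last 500 bases of Ly6c2 transcripts, and had 0 UMIs in the members. At the limits, 31 control and 21 AdipoΔ/Δ members had exactly 2 UMIs of the 4 non-classical genes, and 72 and 31 cells with 1 UMI were left outside. Exactly 1 UMI of Ly6c2 was found in 22 and 18 members, and 250 and 206 cells that met every other limit had none. A C1q sum of 1 was seen in 4 and 14 members and a sum of 2 in 0 and 3 cells outside, and 1 control cell was left out for a single UMI of Cd3e or Cd79a. The highest S100a8 and S100a9 share among the members was 0.628% and 0.0747% of UMIs, against 22.5% and 9.65% in the nearest cells outside (1 control cell and 2 AdipoΔ/Δ cells).

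RNA set free from broken cells also gives UMIs, and B cells, which should lack these transcripts, served as the measure of it. Ly6c2 had a UMI in 7.22% of 263 control B cells and 14.0% of 100 AdipoΔ/Δ B cells, at a median depth of 1884 and 2396 UMIs against 7451 and 6751 in the members. With every cell thinned to 1000 UMIs, Ly6c2 was detected in 53.1% and 58.7% of the members and in 3.64% and 7.95% of the B cells. Both sums of the rule were met by 1 of 263 and 1 of 100 B cells before thinning and by none after it. B cells also lack the non-classical genes, so they say little about Ly6C low cells that took up a stray Ly6c2 UMI. Such cells would meet the rule, and their number among the 22 and 18 members with a single Ly6c2 UMI was not tested. Of the members, 13 of 128 and 7 of 63 still met both sums in 1000 UMIs.

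Gngt2, a G protein gamma subunit and the 1 marker of these cells that the rule did not use, was read against the 2 monocyte states. Ly6C low monocytes (250 control and 206 AdipoΔ/Δ cells) met the same rule with 0 UMIs of Ly6c2. Ly6C high monocytes (190 and 77 cells) had Ly6c2 and 0 UMIs of the 4 non-classical genes, at least 2 UMIs of Csf1r, Ccr2 and F13a1 together, the same limits for other types, and no UMI of the natural killer genes Ncr1 and Klrb1c or the dendritic genes Flt3, Cd209a and Siglech. Gngt2 stood at 1434 CPM (95% Poisson interval 1361 to 1509) in control members and 1105 CPM (1013 to 1204) in AdipoΔ/Δ members. It was lower in Ly6C high cells (440.3 and 300.3 CPM) and slightly higher in Ly6C low cells (1618 and 1345 CPM). In cells thinned to 1000 UMIs it was detected in 75% and 63.5% of the members, 30.7% and 28.9% of Ly6C high cells, 73.9% and 68.3% of Ly6C low cells and 12.3% and 9.09% of B cells. The unthinned shares were 96.1% and 90.5% in the members and 20.5% and 22.0% in B cells. The marker thus fitted the name, at a level close to that of Ly6C low monocytes. All intervals given here cover counting error only, since each group had 1 library.

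The members were the deepest of the 3 states. Their median was 7451 UMIs and 2177 genes per cell in the control library and 6751 UMIs and 2194 genes in the AdipoΔ/Δ library, compared with 6855 and 5850 UMIs in Ly6C high cells and 3300.5 and 2624 UMIs in Ly6C low cells. The range ran from 1542 to 19886 UMIs in control members and from 1404 to 30073 in AdipoΔ/Δ members. No doublet caller was run. A droplet with 1 Ly6C high and 1 Ly6C low cell would meet the rule, and 34 control members (26.6%) and 24 AdipoΔ/Δ members (38.1%) had more UMIs than the medians of both states added together (10155.5 and 8474 UMIs). The same depth was passed by 37 (19.5%) and 24 (31.2%) of the Ly6C high cells and by 5 and 8 Ly6C low cells. Of the members, 78 (60.9%) and 40 (63.5%) lay over 2 times the Ly6C low median (6601 and 5248 UMIs), and values without them are given below where they differ. The part of doublets in the results was not tested.

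By the whole transcriptome the members were monocytes. Each cell was matched to the profiles of 8 cell types and states of the other library, with the genes that define the gates left out. Of 128 control members, 65 were closest to Ly6C high monocytes, 60 to Ly6C low monocytes and 3 to dendritic cells. Of 63 AdipoΔ/Δ members, 39 were closest to Ly6C high monocytes, 18 to Ly6C low monocytes, 3 to dendritic cells, 2 to macrophages and 1 to natural killer cells. The last was the deepest member, with 30073 UMIs. By comparison, 169 of 190 and 62 of 77 Ly6C high cells, and 228 of 250 and 173 of 206 Ly6C low cells, were closest to their own state.

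Intermediate monocytes made up a smaller share of the kept cells in the AdipoΔ/Δ library than in the control library. They were 5.62% of kept control cells (exact Clopper-Pearson 95% interval 4.71 to 6.64) and 3.13% of kept AdipoΔ/Δ cells (2.41 to 3.98), a ratio of 0.556 (0.405 to 0.758). The Ly6C high state moved with them, with a ratio of 0.458 (0.347 to 0.6), whereas the ratio of the Ly6C low state was 0.931 (0.771 to 1.12). Within the 3 monocyte gates the members were 22.5% (19.2 to 26.2) of the control cells and 18.2% (14.3 to 22.7) of the AdipoΔ/Δ cells. That ratio, 0.808 (0.588 to 1.10), had an interval that included 1. Only AdipoΔ/Δ mice were given tamoxifen, so the drug and the deletion it induces cannot be told apart. With 1 library per group, neither can be told apart from any other difference between the libraries, the sort included.

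Placed between both states, single members were spread over the whole range instead of sitting at its middle. For each cell, the weight of the Ly6C high profile was estimated that, mixed with the Ly6C low profile of the other library, made its UMIs most likely (0 for a pure Ly6C low and 1 for a pure Ly6C high profile, genes of the gates left out). Control members had a median weight of 0.53 (quartiles 0.285 and 0.77) and AdipoΔ/Δ members of 0.7 (0.41 and 0.87). The medians were 0.9 and 1 in Ly6C high cells and 0 and 0.04 in Ly6C low cells, so both libraries put the members between the states. Since each library was read with the profiles of the other, the 2 medians are not directly comparable. A weight from 0.25 to 0.75 was found in 64 control members (50%) and 26 AdipoΔ/Δ members (41.3%), against 24.2% and 10.4% of Ly6C high and 14.0% and 22.8% of Ly6C low cells. The remaining members lay at the ends, 31 and 12 of them under 0.25 and 33 and 25 over 0.75.

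**Figure D1:**
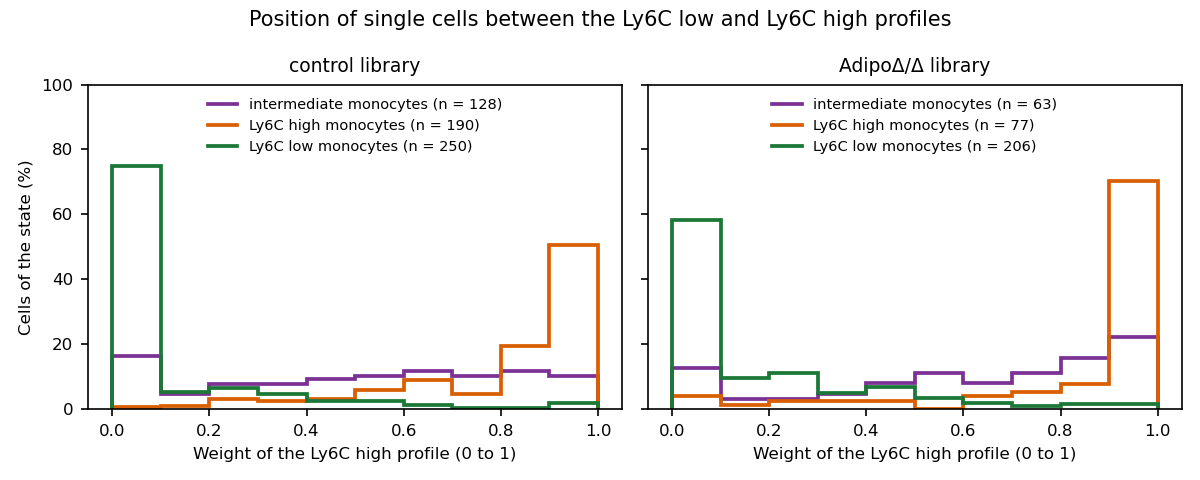
Histograms of the weight of the Ly6C high profile per cell (horizontal axis, 0 to 1, no unit) as a percentage of the cells of each state (vertical axis), for the control library at the left and the AdipoΔ/Δ library at the right, with purple lines for intermediate, orange for Ly6C high and green for Ly6C low monocytes. The members spread over the whole axis, with medians of 0.53 and 0.7, while Ly6C high cells gather near 1 and Ly6C low cells near 0.

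The histograms of these weights show that the rule gathered cells along a range and not a tight cluster. Summed UMIs gave a position that depended on the genes used, and with panels of 4-fold genes it lay nearer to the Ly6C low side. In control members that lean was slight. Panels were formed from genes at least 4-fold apart between Ly6C high and Ly6C low cells, with at least 50 UMIs in the higher state, in 1 library, and were read in the other library. The Ly6C high side supplied 37.4% (36.6 to 38.2) of panel UMIs in control members, between 72.3% in Ly6C high and 8.08% in Ly6C low cells. In AdipoΔ/Δ members it supplied 27.3% (26.5 to 28.2), between 59.8% and 10.6%. These shares are not comparable between libraries, because control cells were read with 26 and 86 genes per side and AdipoΔ/Δ cells with 51 and 98. Position and depth went together: members up to 2 times the Ly6C low median had 24.0% and 18.9% from the Ly6C high side, and deeper members 41.9% and 28.8%. Which of them set the other was not tested. Such shallow members still lay above shallow Ly6C low cells, at 5.96% and 5.36%. With other genes the share was higher, at 58.4% and 54.8% with 2-fold panels and 88.8% and 90.0% with fixed lists of classical and non-classical genes, in which Lyz2 gave most UMIs. By the fixed lists, Ly6C high cells had 96.9% and 96.4% and Ly6C low cells 67.3% and 64.7%. The members thus lay nearer to Ly6C high cells with these lists, the reverse of the 4-fold panels.

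Gene by gene, the 2 sides of the panels did not lie at the same position. On a scale where 0 is the level in Ly6C low and 1 the level in Ly6C high cells, genes of the Ly6C high side had a median position of 0.598 in control members (23 genes at least 2-fold apart there) and 0.417 in AdipoΔ/Δ members (42 genes). Genes of the Ly6C low side had a median position of 0.702 (83 genes) and 0.706 (96 genes). At the median, genes of the Ly6C high side thus lay nearer to their Ly6C high level in control members. In AdipoΔ/Δ members they lay nearer to their Ly6C low level, but these were other genes, so the libraries are not comparable here. Most genes of the Ly6C low side were nearer to their Ly6C high level in both libraries. On the Ly6C high side, 8 of 23 and 4 of 42 genes lay above the Ly6C high level itself.

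Classical genes were the first group of markers. Among 5349 genes compared with Ly6C high cells (at least 20 UMIs in both states together in each library), 21 (0.393%) were at least 2-fold lower in the members of both libraries and 89 (1.66%) at least 2-fold higher. Without the deeper members the 21 became 116, but that set was both shallower and smaller. Among the 12 classical genes compared, Mmp8 and Fn1 were lower in this way, with log2 ratios of -0.56 and -0.45 at the median of the list, against 0.03 and 0.05 over all genes. Mmp8, a collagenase, lay between the states in both libraries, at 59.7 and 57.0 CPM in the members, 178 and 131 in Ly6C high and 9.78 and 5.55 in Ly6C low cells. Fn1, the matrix protein fibronectin, stood at 672 (623 to 724) and 818 (739 to 904) CPM, against 1931 and 1851 CPM in Ly6C high cells. Its level in Ly6C low cells differed between the libraries, at 108 and 711 CPM.

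Against Ly6C low cells, the classical genes Vcan, Chil3, Mmp8, Ms4a4c and Hp were at least 2-fold higher in the members of both libraries. For the 12 genes of their list, log2 ratios were 1.46 and 1.44 at the median, where all 5824 genes compared had medians of -0.04 and -0.07, and 84 genes (1.44%) were at least 2-fold higher and 124 (2.13%) at least 2-fold lower. Vcan, the proteoglycan versican, stood at 58.7 and 50.6 CPM in the members, 216 and 97.1 in Ly6C high and 6.52 and 4.16 in Ly6C low cells. Chil3, the chitinase-like protein Ym1, stood at 769 and 525 CPM, against 1333 and 1025 in Ly6C high and 199 and 92.9 in Ly6C low cells. Ms4a4c and Lyz2 stood out for different reasons. Ms4a4c, a membrane protein with 4 spans, was as high in the members (500.1 and 616 CPM) as in Ly6C high cells (535 and 577), with 144 and 129 CPM in Ly6C low cells. It shares 17.2% of its 31-base words with Ms4a4b, so part of its UMIs cannot be assigned with certainty. Lyz2, the lysozyme of myeloid cells and most abundant gene of the list, stood at 22507 and 21876 CPM and lay between 28338 and 25425 CPM in Ly6C high and 11432 and 11042 CPM in Ly6C low cells. The list as a whole summed to 33453 and 32878 CPM in the members. Ccr2 and F13a1, used for the Ly6C high gate and so described only, stood at 718 and 896 CPM and at 422 and 451 CPM.

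Non-classical genes showed the other face of the members. Of 13 compared with Ly6C high cells, 8 were at least 2-fold higher in the members (median log2 ratio 1.94 and 1.59), and of 16 compared with Ly6C low cells, 11 were at least 2-fold lower (-1.66 and -1.78). In sum the list reached 4090.5 and 3518 CPM, above 1223.5 and 1280.5 CPM in Ly6C high and below 8097 and 8272 CPM in Ly6C low cells. Nr4a1, the nuclear receptor on which Ly6C low monocytes depend, stood at 495 CPM (453 to 540) and 390.2 CPM (336 to 451) in the members. It was 3.95-fold (conditional binomial 95% interval 3.31 to 4.73) and 6.38-fold (4.41 to 9.49) above Ly6C high cells, which had 125 and 61.1 CPM, and under the 830 and 684 CPM of Ly6C low cells. Nr4a1 in the members was thus about midway between the states. Itgal, the alpha chain of the integrin LFA-1, stood at 774 and 601 CPM, 3.85-fold and 3.80-fold above Ly6C high cells and at 0.505 and 0.436 of the Ly6C low level. Spn, the sialoglycoprotein CD43, stood at 134 and 131 CPM, against 34.2 CPM in the Ly6C high cells of both libraries and 499 and 455 CPM in Ly6C low cells. Cx3cr1, the fractalkine receptor, stood at 203 and 224 CPM, between 90.6 and 113 CPM in Ly6C high and 276 and 401 CPM in Ly6C low cells. The methods describe crosses to Cx3cr1-gfp and TdTomato reporter lines, which the labels of these mice do not name.

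Other genes of the Ly6C low state were far below their Ly6C low level in the members. Dusp16, a phosphatase of MAP kinases, had 10.8 and 27.4 CPM in the members and 154 and 233 CPM in Ly6C low cells. Tcf7l2, a transcription factor of the Wnt pathway, had 12.7 and 14.8 CPM against 106 and 107 CPM. Cd36, a scavenger receptor for lipids, had 26.4 and 101 CPM against 226 and 520.0 CPM, and Fcgr4, an activating Fc receptor, had 19.6 and 25.3 CPM against 149 and 179 CPM. These genes were at 0.0698 to 0.195 of the Ly6C low level, far from the 0.571 and 0.597 of Nr4a1. With the rule applied to cells thinned to 1000 UMIs, Cd36 turned in AdipoΔ/Δ members, to a log2 ratio of 0.45. In that library 26 of its 48 UMIs came from 1 member, and Ly6C high cells had 171 CPM, more than the members. Eno3, a muscle-type enolase, lay in between, with 55.8 and 46.4 CPM against 298 and 269 CPM in Ly6C low and 2.23 and 7.19 CPM in Ly6C high cells. The genes of the Ly6C low program therefore did not stand at a common fraction of their Ly6C low level.

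**Figure D2:**
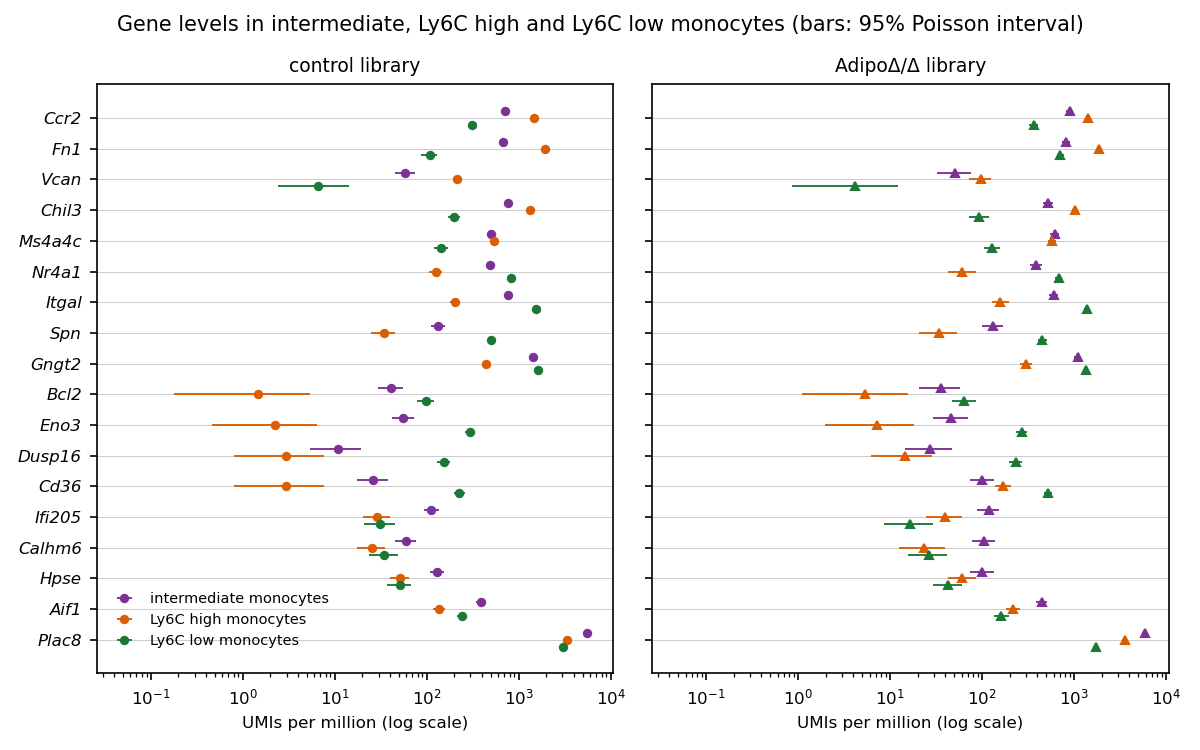
Levels of 18 genes in CPM (horizontal axis, log scale) in the control library at the left and the AdipoΔ/Δ library at the right, with purple for intermediate, orange for Ly6C high and green for Ly6C low monocytes; bars are 95% Poisson intervals. From Ccr2 to Chil3 the purple points lie between orange and green, Nr4a1 lies between them too, Gngt2 lies near green, Dusp16 and Cd36 lie far under it, and Ifi205 to Plac8 lie above both states.

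The plot of gene levels sets these groups side by side, with the survival gene Bcl2 between them. Of 8 survival genes compared, 4 were at least 2-fold above Ly6C high cells in both libraries (Bcl2, Bcl2a1a, Bcl2a1b and Bcl2a1d; log2 ratios of 2.69 and 0.68 at the median), and 0 differed 2-fold from Ly6C low cells in both. Bcl2, which blocks mitochondrial apoptosis, stood at 41.1 CPM (29.6 to 55.6) and 35.9 CPM (20.9 to 57.4), with 2 and 3 UMIs in all Ly6C high cells and 98.8 and 63.8 CPM in Ly6C low cells. The Bcl2a1 genes encode the related protein A1 and are near copies, since 62.3% and 80.2% of the words of Bcl2a1a occur in Bcl2a1b and Bcl2a1d, so their counts are uncertain one by one. Summed, the list reached 1011 and 1072 CPM in the members, with Mcl1 as its most abundant gene, and 716 and 951 CPM in Ly6C high cells.

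Receptors and adhesion molecules that guide monocytes followed both patterns. Adhesion genes had log2 ratios of 0.63 and 0.37 over Ly6C high cells at the median of 12 genes and of -0.57 and -0.69 over Ly6C low cells at the median of 14. Their sum of 3401 and 3244 CPM lay between the states. Icam1, a ligand of LFA-1, stood at 88.1 and 99.1 CPM, against 29.7 and 48.6 CPM in Ly6C high and 77.1 and 54.1 CPM in Ly6C low cells. Among 6 chemokine and egress receptors compared with Ly6C high cells, Fpr2, a receptor for formyl peptides, was higher, and Ccr1, a receptor for inflammatory chemokines, lower. Fpr2 stood at 148 and 50.6 CPM in the members and 28.2 and 16.2 CPM in Ly6C high cells, and Ccr1 had 15 and 4 UMIs in the members. Of 9 receptors compared with Ly6C low cells, 0 were higher and 4 lower. S1pr5, a sphingosine 1-phosphate receptor, stood at 29.4 and 25.3 CPM against 112 and 123 CPM. Cxcr4, the receptor that retains cells in bone marrow, stood at 44.0 and 54.8 CPM against 101 and 180.3 CPM. The remaining receptors were S1pr4 and Fpr1, at 10 UMIs or fewer in the members of each library, and both turned in 1 library without the deeper members (log2 ratio 0.74 for S1pr4 in AdipoΔ/Δ and 0.25 for Fpr1 in control members). In sum the receptor list reached 1224 and 1358 CPM in the members.

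Of 20 fate transcription factors compared with Ly6C high cells, 1 was at least 2-fold higher in both libraries (Nr4a1; median log2 ratio 0.30 and 0.10). Against Ly6C low cells, 1 of 22 was higher (Batf3) and 3 were lower (Hes1, Ets2 and Tcf7l2), with a median of -0.11 and -0.27. Hes1, a target of Notch signals, stood at 59.7 and 35.9 CPM in the members, 7.42 and 3.60 in Ly6C high and 146 and 107 in Ly6C low cells. In the 23 shallower AdipoΔ/Δ members Hes1 was at the Ly6C low level. The list, which lacked Nr4a3, summed to 6505 and 6003 CPM in the members, between 4290.4 and 4449 CPM in Ly6C high and 8421 and 7842 CPM in Ly6C low cells. Cebpb was its most abundant factor, at 1958 and 1637 CPM against 1030.5 and 939 CPM in Ly6C high cells. Of 6 Fc receptors, Fcgr1, the high-affinity receptor of inflammatory cells, was 2.57-fold (1.52 to 4.51) and 4.15-fold (2.51 to 7.10) above Ly6C low cells, and Fcgr4 lower. No Fc receptor was 2-fold apart from Ly6C high cells in both libraries, and Fcer1g led the summed level of 3319 and 3434 CPM. Of 3 colony-stimulating factor receptors compared, 0 were 2-fold apart from either state in both libraries, at a sum of 1434 and 1207 CPM. In the Ms4a family, 1 of 5 genes (Ms4a4c) was above Ly6C low cells and 0 of 5 above Ly6C high cells, at a sum of 2247 and 2575 CPM.

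Lipid genes are of interest in a tissue that burns fat. Against Ly6C low cells, 1 of 17 lipid handling genes was higher in the members of both libraries and 4 were lower, and against Ly6C high cells 0 of 16 were past 2-fold either way. Npc2, which carries cholesterol out of lysosomes, was the higher one, at 1061 and 1398 CPM against 453 and 544 CPM. The lower ones were Cd36, the fatty acid carrier Fabp4 (30.3 and 25.3 CPM against 152 and 165), the nuclear receptor Pparg (7.83 and 14.8 against 51.0 and 77.6) and the cholesterol exporter Abcg1 (29.4 and 38.0 against 76.0 and 108). The list summed to 4216 and 6193 CPM.

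Cell cycle transcripts were scarce in the members. Of 16 genes in the list, 9 had a UMI in each library, and Hmgb2 alone gave 474 of 578 and 178 of 226 UMIs. Cdk1, Ccna2 and Ccnb1, which drive division, had 0 UMIs in the members of both libraries, which allows up to 3.61 and 7.78 CPM. In Ly6C low cells Mcm3, a replication helicase subunit, was the 1 gene of 3 compared that was higher than in the members. Immediate-early and inflammatory genes, which rise when cells are handled, summed to 2795 and 2673 CPM in the members, near 2721 and 1991 CPM in Ly6C high and 2655 and 3150.2 CPM in Ly6C low cells. Of 13 compared with Ly6C high cells, only Il1b was higher, at 122 and 146 CPM against 42.3 and 32.4, and 0 of 14 differed 2-fold from Ly6C low cells in both libraries.

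Interferon-stimulated genes separated the members from Ly6C low cells and not from Ly6C high cells. Of 18 compared, 14 were at least 2-fold above Ly6C low cells in both libraries, with a median log2 ratio of 1.46 and 1.97, and 0 were past 2-fold either way against Ly6C high cells (0.36 and 0.13). The list summed to 6021 CPM (5872 to 6174) in control and 7634 CPM (7387 to 7886) in AdipoΔ/Δ members, close to 5688 and 6829 CPM in Ly6C high cells and above 3034 and 2998 CPM in Ly6C low cells. Ifitm3, which blocks viral entry, was its most abundant gene, at 3912 and 4077 CPM. Isg15, a ubiquitin-like modifier induced by interferon, stood at 177 CPM (152 to 205) and 407 CPM (352 to 469) in the members. That was 4.94-fold (3.40 to 7.40) and 19.6-fold (11.6 to 35.7) above Ly6C low cells. Irf7, the transcription factor that amplifies type I interferon, was 3.21-fold and 5.57-fold above, at 167 and 340.0 CPM. Ifit3, which binds viral RNA complexes, had 44.0 and 131 CPM against 4.34 and 5.55 CPM in Ly6C low cells. Cxcl10, a chemokine for activated T cells, had 101 and 140 UMIs in the members, 35 and 72 of them in 1 cell of each library, and 0 and 1 UMIs in Ly6C low cells. Its level was at least 30.3-fold above control Ly6C low cells, taking 3 counts as their floor.

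Depth bears on this comparison, since the members were deeper than Ly6C low cells. Among members up to 2 times the Ly6C low median (50 and 23 cells), the list summed to 5177 CPM (4893 to 5473) and 5845 CPM (5331 to 6396), against 2951 and 3143 CPM in Ly6C low cells of the same depth. The summed level thus remained above that of shallow Ly6C low cells. In these fewer cells, however, 12 genes had enough UMIs and 3 of them (Isg15, Irf7 and Ifi209) were past 2-fold in both libraries, with a median log2 ratio of 0.94 and 1.14. Over all 4613 genes compared there, 26 were higher and 156 lower. Stat2, a signal transducer of interferon receptors, was among the 14, and in the shallow AdipoΔ/Δ members it turned, with a log2 ratio of -1.55.

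**Figure D3:**
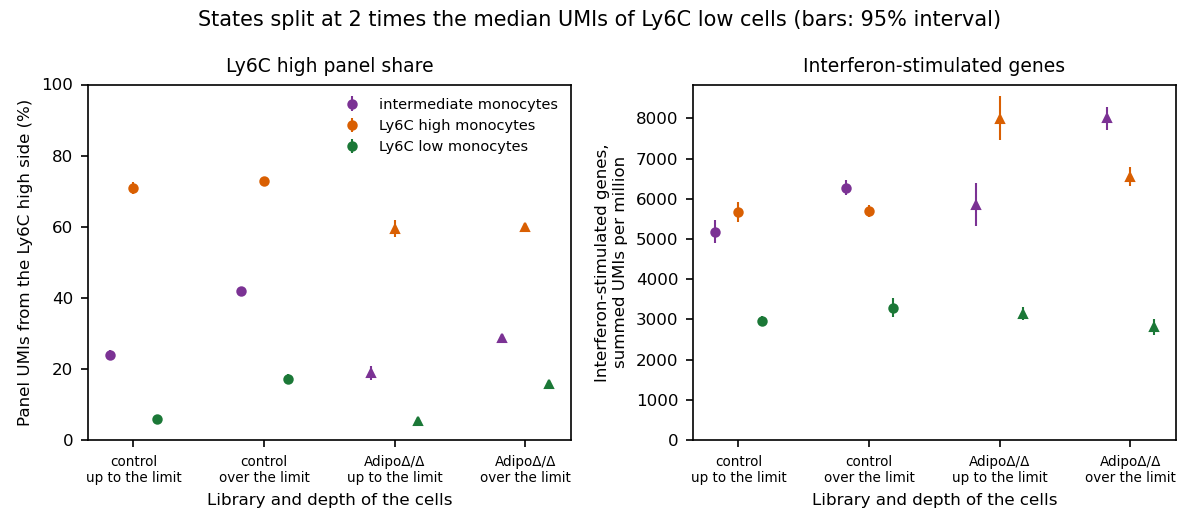
Percentage of panel UMIs from the Ly6C high side (left panel) and summed CPM of the interferon-stimulated list (right panel) for cells up to and over 2 times the median UMIs of Ly6C low cells in each library (horizontal axis); purple is intermediate, orange Ly6C high and green Ly6C low, circles are control and triangles AdipoΔ/Δ, and bars are 95% intervals. Members up to the limit had 24.0% and 18.9% of panel UMIs from the Ly6C high side and 5177 and 5845 CPM of the list, above Ly6C low cells of either depth.

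The plot split by depth shows that deeper members had more of both measures than shallower ones, and that the panel share rose with depth in Ly6C low cells too (to 17.2% and 15.8% over the limit) and hardly in Ly6C high cells (70.9% to 72.8% and 59.4% to 59.9%). Promoters are shown for interferon genes because a known motif of interferon response elements, GAAA, 2 bases of any kind and GAAA again, could be counted in them. It was searched on both strands of the 250 bases before the start of each gene in the RefSeq table of GRCm38.p6. Of 27025 promoters, 936 (3.46%) held it, and so did 190 of 4701 (4.04%) among the genes compared with Ly6C low cells. Of the 84 genes above Ly6C low cells, 70 matched a promoter of the table and 20 of these (28.6%) held the motif. Without the interferon-stimulated list it was 13 of 59 (22.0%), and among genes below Ly6C low cells 4 of 101 (3.96%). Of the 19 genes of that list in the files, 14 matched a promoter and 7 held it. Among genes above Ly6C high cells, where 3 of 66 promoters (4.55%) had the motif, they were Aif1, Calhm6 and Ifi205. Ifi205 and its relatives Ifi203, Ifi206, Ifi211 and Ifi213, the last 4 chosen after their values were seen, are neighbours on chromosome 1 and hold the motif in their promoters too, so they are not independent. A match is a description of letters, not a binding site or a cause. The promoters below are written 5′ to 3′ on the strand of the gene, with matches in capitals: Ifi205 (chr1:174031756-174032005, minus strand; first base of the match 134 bases before the start), Isg15 (chr4:156200819-156201068, minus strand; 3 overlapping matches from 78 bases), Cxcl10 (chr5:92348890-92349139, minus strand; 213 bases), Ifit3 (chr19:34583279-34583528, plus strand; matches of the other strand at 156 and 122 bases) and, as a gene above both states without a match, Plac8 (chr5:100572206-100572455, minus strand).
Ifi205: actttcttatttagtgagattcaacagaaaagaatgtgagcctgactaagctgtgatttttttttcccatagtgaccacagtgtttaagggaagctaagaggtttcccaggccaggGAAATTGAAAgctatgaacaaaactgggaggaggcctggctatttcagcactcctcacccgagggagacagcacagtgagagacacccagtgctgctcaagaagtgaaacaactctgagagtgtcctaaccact
Isg15: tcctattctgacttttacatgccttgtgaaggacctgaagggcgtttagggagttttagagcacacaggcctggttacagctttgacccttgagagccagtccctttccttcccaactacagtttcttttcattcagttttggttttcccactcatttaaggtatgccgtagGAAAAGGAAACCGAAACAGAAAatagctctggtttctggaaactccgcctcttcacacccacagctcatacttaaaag
Cxcl10: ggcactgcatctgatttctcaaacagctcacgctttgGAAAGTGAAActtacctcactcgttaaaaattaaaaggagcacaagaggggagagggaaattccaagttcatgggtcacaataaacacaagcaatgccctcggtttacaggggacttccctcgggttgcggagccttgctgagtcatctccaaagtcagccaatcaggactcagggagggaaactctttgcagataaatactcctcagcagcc
Ifit3: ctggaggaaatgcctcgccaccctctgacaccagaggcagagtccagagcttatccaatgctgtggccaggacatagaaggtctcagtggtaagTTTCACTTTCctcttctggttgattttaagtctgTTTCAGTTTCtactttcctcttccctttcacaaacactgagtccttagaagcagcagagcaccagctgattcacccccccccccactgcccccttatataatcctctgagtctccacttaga
Plac8: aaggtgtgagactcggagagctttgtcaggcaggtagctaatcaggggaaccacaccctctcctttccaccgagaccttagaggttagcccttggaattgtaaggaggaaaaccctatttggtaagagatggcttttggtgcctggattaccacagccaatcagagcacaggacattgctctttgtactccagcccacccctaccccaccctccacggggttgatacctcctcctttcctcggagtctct

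Few genes were higher in the members than in both states, and Ifi205 led them. Of 3650 genes compared, 12 (0.329%) were at least 1.5-fold above both states in both libraries and 1 (0.0274%) was at least 1.5-fold below both. At 2-fold, Ifi205 was the only gene above both states. Ifi205 (ENSMUSG00000054203, chr1:174011998-174031810, minus strand) encodes an interferon-inducible protein of the PYHIN family, whose members sense DNA. The RefSeq start used for its promoter lies inside this span, since the annotations place the start differently. It stood at 113 CPM (92.9 to 135; 115 UMIs in 48 of 128 cells) in control and 118 CPM (89.2 to 153; 56 UMIs in 22 of 63 cells) in AdipoΔ/Δ members. Ly6C high cells had 29.0 and 39.6 CPM, Ly6C low cells 31.5 and 16.6 CPM, and B cells 1.33 and 2.07 CPM. The ratio was 3.89 (2.68 to 5.74) and 2.99 (1.79 to 5.13) over Ly6C high cells. Over Ly6C low cells it was 3.57 (2.36 to 5.57) and 7.10 (3.76 to 14.6), so all 4 intervals lay above 1.5. Ifi205 was picked by its rank on these same ratios, so the intervals are no separate support. Split by depth, the control members up to 2 times the Ly6C low median had 133 CPM, against 31.8 CPM in Ly6C high and 21.5 CPM in Ly6C low cells of that depth. The AdipoΔ/Δ members of that depth had 98.7 CPM (8 UMIs; 42.6 to 194), against 104 CPM in Ly6C high cells (11 UMIs; 51.7 to 185) and 9.78 CPM in Ly6C low cells. The excess over Ly6C high cells was therefore not seen in the shallower AdipoΔ/Δ cells, where UMIs were few. Its last 500 bases share 2.02% of their words with Ifi204 and 0% with Ifi209.

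The other genes of this group had varied roles. Plac8 (ENSMUSG00000029322), a small cysteine-rich protein of myeloid cells, was the most abundant of them, at 5577 CPM (5433 to 5724) and 5938 CPM (5720 to 6161) in the members. Ly6C high cells had 3349 and 3620.3 CPM and Ly6C low cells 3024 and 1718 CPM. Plac8 is on the classical list, yet here it was 1.67-fold and 1.64-fold above the classical state itself. Aif1, the calcium-binding protein IBA1, stood at 386 and 445 CPM, against 137 and 218 in Ly6C high and 242 and 162 in Ly6C low cells. Calhm6, a channel protein induced in activated phagocytes, stood at 59.7 and 105.5 CPM, against 25.2 and 23.4 and against 34.8 and 26.3 CPM. Heparanase (Hpse), which cuts heparan sulfate of the matrix, stood at 131 and 101 CPM, with 51.2 and 61.1 CPM in Ly6C high and 51.0 and 43.0 CPM in Ly6C low cells. Cd40, a costimulatory receptor, stood at 43.1 and 44.3 CPM, and B cells, which express it, had 53.1 and 31.1 CPM. Also among the 10 highest were Pml and Herc6, both induced by interferon, and Tmem176b and Bag6. Pml rested on 23 and 20 UMIs in the members, and its intervals over Ly6C high cells included 1. Below both states, the lowest were Xylt1, Oxct1 and Snrk, each under 30 UMIs in the members of either library, with Xylt1 at 20.6 and 23.2 CPM against 32.7 to 47.1 CPM in the states.

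**Figure D4:**
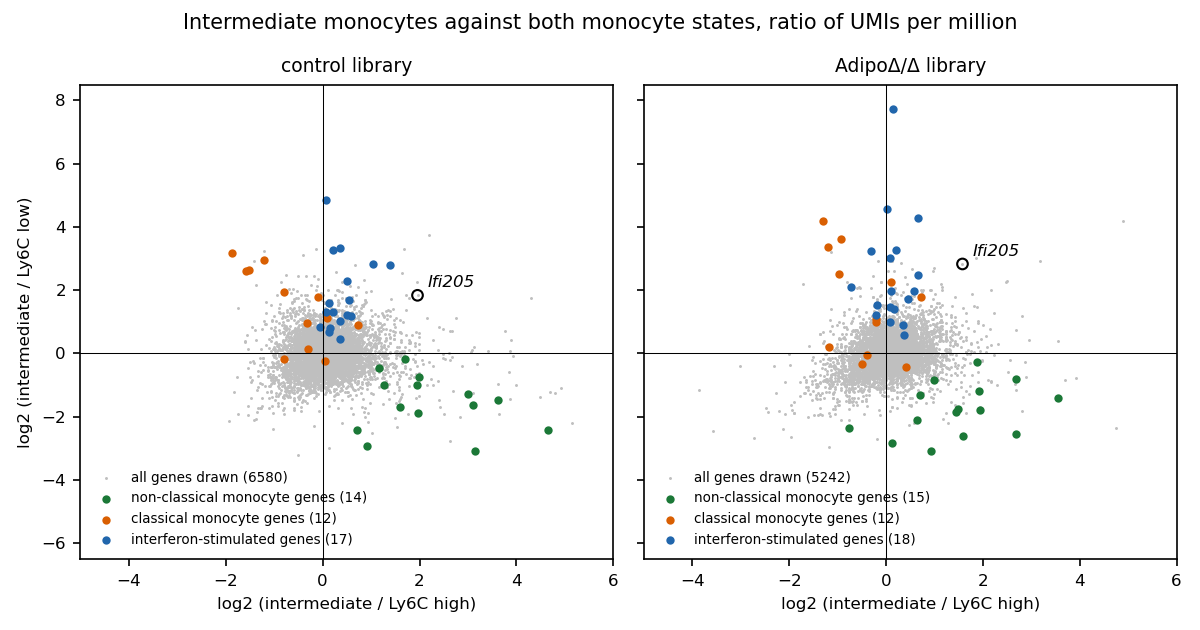
Each point is a gene, placed by the log2 ratio of its CPM in intermediate over Ly6C high monocytes (horizontal axis) and over Ly6C low monocytes (vertical axis). The control library is at the left and the AdipoΔ/Δ library at the right. Ace, Treml4, Cd300e, Adgre4, Ly6c2, Csf1r, Ccr2 and F13a1 are left out, and other genes used by the gates are not. Non-classical genes (green) lie right and low, classical genes (orange) left and high, interferon-stimulated genes (blue) high near 0 on the horizontal axis, and Ifi205 (ringed) high and right at ratios of 3.89 and 3.57 in the control library.

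The scatter of ratios over both states summarises the 3 directions. Genes in its lower right were above Ly6C high and below Ly6C low cells, which was the case for 11 genes at 2-fold in both libraries. Mmp8 and Stxbp6 were past 2-fold in its upper left. Most genes past 2-fold against 1 state were therefore not past 2-fold against the other in both libraries.

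Antigen presentation genes varied among the members themselves. MHC class II genes summed to 6065 and 9460.3 CPM in the members, near 5852 and 10993 CPM in Ly6C low and above 1111 and 4834 CPM in Ly6C high cells. In the control library 16 of 128 members (12.5%) had at least 1% of their UMIs from the list and held 84.3% of its UMIs, and in the AdipoΔ/Δ library 18 of 63 (28.6%) held 74.6%. These members were closest to Ly6C high cells in 8 and 10 cases, to Ly6C low in 5 and 4 and to dendritic cells in 3 and 3. In the rest the list fell to 1126 and 3458 CPM. Cd74, the invariant chain, was the 1 of 7 class II genes at least 2-fold above Ly6C high cells in both libraries, with ratios of 6.12 (5.61 to 6.69) and 2.22 (2.06 to 2.39). The second of these turned without the class II-rich members, to a log2 ratio of -0.28. At the median of the list, log2 ratios were 2.61 and 0.87 over Ly6C high cells and 0.03 and -0.06 over Ly6C low cells. Class II-rich cells were also present in the comparison states, as 3.16% and 13% of Ly6C high and 10.4% and 12.1% of Ly6C low cells. MHC class I genes were spread more evenly and summed to 7003 and 8589 CPM, with B2m as the most abundant. Of 9 compared, Nlrc5, the activator of class I transcription, was above Ly6C high cells, at 25.4 and 33.7 CPM against 11.1 and 8.99 CPM, and 0 of 9 differed 2-fold from Ly6C low cells in both libraries.

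Members with a single Ly6c2 UMI lay nearest to the Ly6C low state by their median weight. Split by raw Ly6c2 UMIs, control members had a median weight of 0.09 with 1 UMI (22 cells), 0.575 with 2 to 4 (48 cells) and 0.62 with 5 or more (58 cells). AdipoΔ/Δ members had 0.405 (18 cells), 0.7 (13 cells) and 0.805 (32 cells). Panel shares followed that order in control members, where the Ly6C high side supplied 17.4%, 35.8% and 45.5% of panel UMIs. In AdipoΔ/Δ members the shares were 19.6%, 18.2% and 34.5%, so the lower strata did not differ in that order there. The median depth was highest in the cells with 5 or more, at 9436.5 and 9061.5 UMIs against 6942 and 4982.5 UMIs with 1, so depth moved with the split. With Ly6c2 counted in 1000 UMIs per cell, the panel shares at 0, 1 and 2 or more were 30.0%, 42.6% and 47.8% in control members and 17.3%, 26.9% and 41.6% in AdipoΔ/Δ members. The median weights of these strata were 0.455, 0.6 and 0.5 in control members and 0.485, 0.73 and 0.825 in AdipoΔ/Δ members. The relation of Ly6c2 to position thus depended on the measure in the control library. In the AdipoΔ/Δ library both measures rose over these strata, but so did their median depth, at 5458, 6695 and 8945.5 UMIs. Interferon-stimulated genes were lowest in the cells with 1 raw UMI, at 3752 and 2965 CPM, and highest with 5 or more, at 6691 and 10115 CPM. MHC class II genes were highest with 1 UMI, at 16077 and 13562 CPM, but 2 of those 22 control cells, both closest to dendritic cells and with 8.51% and 7.71% of their UMIs from the list, held most of its control UMIs.

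The weights did not use Ly6c2, although genes that differ between the 2 profiles follow them in part by construction. In control members, Nr4a1 stood at 759 CPM under a weight of 0.25, 546 CPM from 0.25 to 0.75 and 268 CPM over 0.75, and Itgal at 1573, 785 and 311 CPM. The interferon-stimulated list ran from 3430.5 to 6334 and 6981 CPM. In AdipoΔ/Δ members, Nr4a1 stood at 1236, 317 and 300.2 CPM and the list at 5016, 5729 and 9729.9 CPM. Ifi205 did not follow that order, with 137, 135 and 64.1 CPM in the control and 47.5, 151 and 103 CPM in the AdipoΔ/Δ library. Plac8 was highest in the middle bin of the control library, at 6068 CPM, and over 0.75 in the AdipoΔ/Δ library, at 7779 CPM.

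Between the libraries, members differed in a limited set of genes. Of 3619 genes with at least 50 UMIs in the members of both libraries together, 69 (1.91%) were at least 2-fold higher in the AdipoΔ/Δ library and 31 (0.857%) at least 2-fold lower, around a median log2 ratio of 0.08. Among Ly6C high cells 125 and 41 of 4171 genes were past 2-fold, and among Ly6C low cells 114 and 17 of 4068. With only the members closest to a monocyte state, 58 of 3410 (1.70%) were higher and 34 (0.997%) lower, and 42 and 21 of the first calls were kept. Of the 69, 6 had at least 50% of their UMIs from 1 cell. Without the deeper members 19 were higher and 19 lower, from fewer cells.

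By number, interferon-stimulated genes were the list with most genes past 2-fold, 5 of 18 (Cxcl10, Ifit3, Isg15, Ifit2 and Irf7), with a median log2 ratio of 0.77. The lipid handling list, described below, had a larger share, 4 of 12. Isg15 was 2.30-fold higher in AdipoΔ/Δ members (1.87 to 2.83), Irf7 2.03-fold (1.63 to 2.53) and Ifit3 2.97-fold (1.99 to 4.46). Ly6C high cells moved in the same direction, with ratios of 2.08, 1.86 and 3.79, and B cells too, with 2.63, 2.57 and 4.68. In Ly6C low cells the ratios were 0.580, 1.17 and 1.28. The difference was thus shared by Ly6C high cells and B cells and not seen in Ly6C low cells, whose numbers of UMIs were small. Cxcl10 was 2.99-fold higher (2.30 to 3.90) and Ifit2 2.04-fold, while Ifitm3 had a ratio of 1.04 (0.987 to 1.10). Without members closest to other types 4 of 18 were past 2-fold, and without the deeper members 1. Counting only members with at least 2 UMIs of Ly6c2, 8 were.

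Other lists held fewer such genes. Fcgr1 was 2.27-fold higher (1.55 to 3.32), 1 of 4 Fc receptors, with a ratio of 2.64 in Ly6C high cells. Of 20 fate transcription factors, 2 were higher: Maf, a factor of macrophage identity, 2.58-fold (1.75 to 3.82; 3.13 in Ly6C high and 2.91 in Ly6C low cells), and Id2, which had 39 of 83 UMIs in 1 cell and a ratio of 0.942 without members closest to other types. Among 12 lipid handling genes 4 were higher, namely Lpl, Cd36, Apoe and Plin2, and 2 of 10 without members closest to other types. Lpl, the lipase that frees fatty acids from lipoproteins, was 8.20-fold higher (5.90 to 11.6), but 63 of its 175 UMIs came from 1 cell, and the ratio was 2.83 without members closest to other types. B cells, which should lack it, had a ratio of 117 with 774 CPM in the AdipoΔ/Δ library, and the source of their Lpl UMIs was not tested. Apoe, which carries cholesterol, was 2.00-fold higher (1.82 to 2.20), with 1.53 in Ly6C high and 0.646 in Ly6C low cells, and without the deeper members its log2 ratio turned to -0.44. Plin2, which coats lipid droplets, was 2.02-fold higher (1.38 to 2.93), against 4.37 and 2.51 in the other states. Pnpla2 itself stood at 30.3 and 46.4 CPM, a ratio of 1.53 (0.844 to 2.73). Of 7 MHC class II genes 1 was higher (Ciita, 2.00-fold, 1.13 to 3.54), and of 5 Ms4a genes 1 (Ms4a4b, 2.08-fold, 11 of 28 UMIs from 1 cell, and -0.39 as log2 ratio with the rule on thinned cells). Classical genes (0 of 12), adhesion (0 of 12), class I (0 of 8), survival (0 of 8), immediate-early (0 of 11), colony-stimulating factor receptor (0 of 3) and cell cycle genes (0 of 2) had none, chemokine and egress receptors had Fpr2 as lower (1 of 3), and non-classical genes had only Cd36, also counted above (1 of 12).

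The largest ratios were mostly shared with other cells or carried by few members. Retnla, the secreted protein RELMα, was 27.4-fold higher (17.0 to 47.1), at 17.6 and 483 CPM, with 120 of 229 UMIs from 1 cell. It was 24.9-fold higher in B cells too, and 6.82-fold higher among members closest to monocytes. Gzma, a granzyme of natural killer cells, had 203 of its 204 AdipoΔ/Δ UMIs in 1 cell, the deepest member, and the T cell chemokine Ccl5 had 136 of 154 in 1 cell. Pltp, a phospholipid transfer protein, was 3.77-fold higher (2.23 to 6.51; 15.1 in B cells). H2-Q7, a class I-like molecule, was 3.33-fold (2.13 to 5.24), and Gbp2, a guanylate-binding protein induced by interferon, 3.02-fold (1.84 to 4.99) against 1.11 in Ly6C high and 0.838 in Ly6C low cells. On the lower side, Slpi, an inhibitor of serine proteases, was at 0.193 of the control level (0.108 to 0.322; 0.136 in B cells), and the ribosomal pseudogene Rpl36a-ps1 at 0.212, with 0.376, 0.526 and 0.393 in Ly6C high, Ly6C low and B cells. Fpr2 and Fas were lower in AdipoΔ/Δ members while Ly6C low cells went the other way. Fpr2 fell from 148 to 50.6 CPM, a ratio of 0.343 (0.213 to 0.529), against 0.574 in Ly6C high and 1.37 in Ly6C low cells, and Fas, a death receptor, from 85.1 to 33.7 CPM, 0.396 (0.217 to 0.681), against 1.01 in Ly6C high and 1.76 in Ly6C low cells. Whether these ratios differ between the states was not tested.

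**Figure D5:**
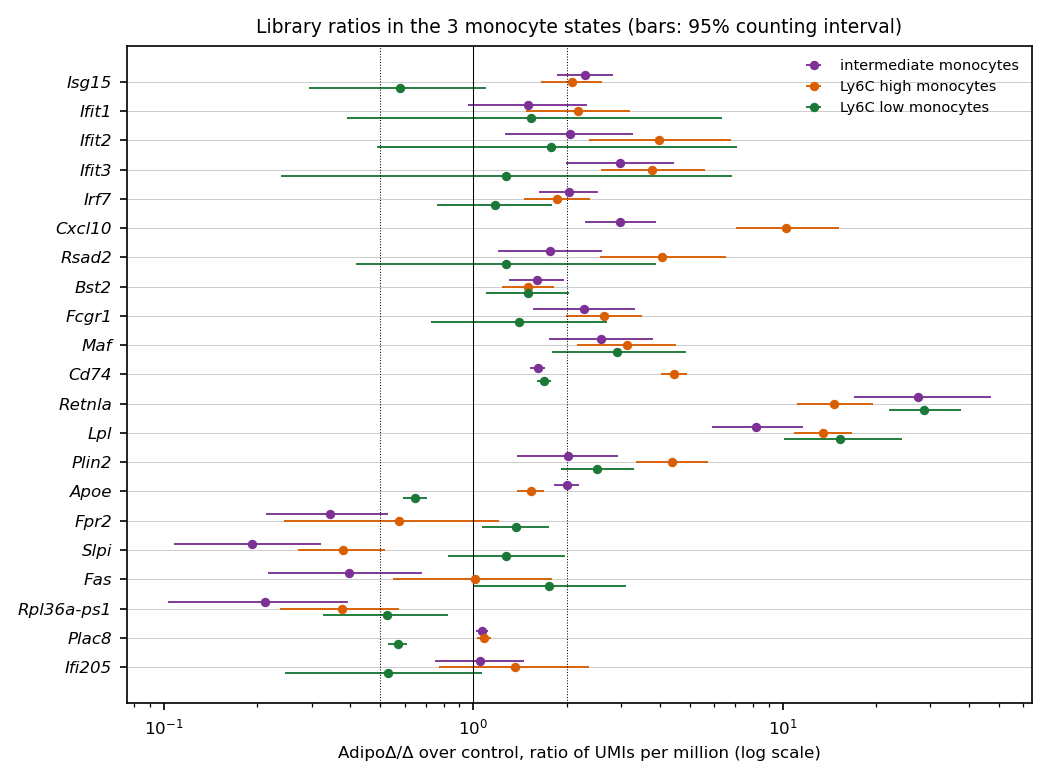
Ratio of CPM in the AdipoΔ/Δ over the control library (horizontal axis, log scale) for 21 genes in intermediate (purple), Ly6C high (orange) and Ly6C low monocytes (green); bars are 95% counting intervals, dotted lines mark 0.5 and 2, and a ratio is not drawn where a library had 0 UMIs. Isg15, Ifit3 and Irf7 lie past 2 in the members (2.30, 2.97 and 2.03), Retnla and Lpl are high in all 3 states, and Ifi205 and Plac8 lie near 1 in the members (1.05 and 1.06).

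The genes that set the members apart from both states did not behave alike between the libraries. Ifi205 had a ratio of 1.05 (0.749 to 1.46) and Plac8 of 1.06 (1.02 to 1.11), as the plot of library ratios shows, while in Ly6C low cells they were 0.528 and 0.568. Calhm6 was 1.77-fold (1.19 to 2.61) and Herc6 2.29-fold (1.37 to 3.83) higher.

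Markers of other cell types were read in the members as 10 lists, some of them carried by single cells. Macrophage markers summed to 514 and 837 CPM, against 385 and 802 CPM in Ly6C high cells (9 and 7 of 12 genes detected), with Lyz1 as the most abundant, for which 1 cell held 205 of 221 and 149 of 184 UMIs, and Mertk was at 0 in both libraries. Neutrophil markers summed to 22.5 and 14.8 CPM (5 and 3 of 8), led by Retnlg and G0s2, with Cxcr2, Ly6g and Camp at 0. Dendritic cell markers summed to 112 and 33.7 CPM (5 and 4 of 8), led by Cd209a and Clec10a, with Clec9a and Siglech at 0 and 49 of 114 control UMIs in 1 cell. The levels of macrophage and neutrophil markers are partly set by the limits of the rule. Natural killer markers stood at 12.7 and 677 CPM (5 and 6 of 6; Gzma), 318 of the 321 AdipoΔ/Δ UMIs being in the deepest member. T cell markers summed to 10.8 and 25.3 CPM (3 and 3 of 8; Cd3d and Trbc2, with Trac, Cd4 and Cd8b1 at 0). B cell markers summed to 151 and 190 CPM (4 and 3 of 7; Ighm, with Ms4a1 and Pax5 at 0). Apart from the deepest member, most lymphocyte marker UMIs were thus Ighm, and Ly6C high cells had 219 and 266 CPM of the B cell list. Platelet markers summed to 1.96 and 48.5 CPM (2 and 4 of 6; Gp9 and Pf4, with Gp1bb at 0). Erythroid markers summed to 33.3 and 12.7 CPM (4 and 3 of 5; Hbb-bs and Hba-a1, with Alas2 at 0). Adipocyte markers stood at 2.94 and 2.11 CPM (2 and 1 of 6; Adipoq, with Ucp1 and Plin1 at 0) and endothelial markers at 2.94 and 0 CPM (1 and 0 of 5; Cdh5, with Kdr and Cldn5 at 0), where 0 UMIs allow up to 7.78 CPM. Against the states, 1 of 3 macrophage markers compared was above Ly6C high cells (Lyz1) and the 1 neutrophil marker compared was below Ly6C low cells (G0s2). Their part in the results was not tested.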

How the data were processed

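The values are raw UMI counts of 2 libraries, made and deposited by the authors with Cell Ranger 4.0.0 (file header) on mm10 (labels). Barcodes with under 200 detected genes (68 control, 56 AdipoΔ/Δ) or over 10% mitochondrial UMIs (287, 356) were left out, which left 2279 and 2016. Members and gene lists were chosen with earlier results of these data known. UMIs were summed per state and compared as CPM, with Poisson, Clopper-Pearson and conditional binomial intervals. Genes needed 20 UMIs for comparisons of states and 50 for comparisons of libraries. Named genes were those of the rule and of 25 lists (10 of them of other cell types), the 10 leading genes of each panel side, the 10 furthest above and below both states and the 10 furthest up and down between libraries, and genes marked as chosen after their values were seen, 320 in all. A gene counted as past the fold at 2-fold in both libraries. The code was tested on simulated data. Python 3.11.15, NumPy 2.4.6, SciPy 1.17.1, pandas 2.3.3 and Matplotlib 3.10.9 were used.

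Each group had 1 library, so no test between groups was possible and the difference has no replicate check. Mice per library are not stated. Members were the deepest monocytes, no doublet caller was run, and droplets holding cells of both states cannot be told apart from intermediate cells. Ly6C high and Ly6C low cells were set by gates on few genes, so cells that missed a UMI by chance may be in the wrong gate, and shallow intermediate cells may be counted as Ly6C high or Ly6C low. Lists and profiles overlap in genes. RNA abundance is relative, and neither protein nor location in the tissue was measured.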

Additional observations from a re-analysis of the deposited data

Results flagged for a closer look

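Some genes of the members moved in opposite directions in the 2 libraries when set against a monocyte state. Each rests on few UMIs, and the difference was not tested.

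C5ar1, the receptor of the complement fragment C5a, was at 2.64 of the Ly6C high level in control members and at 0.229 in AdipoΔ/Δ members (26 and 8 UMIs in the members). Cd9, a tetraspanin, was at 6.15 and 0.440 of the Ly6C high level (28 and 24 UMIs). Cxcl2, a chemokine for neutrophils, was at 6.61 and 0.0293 of the Ly6C low level, with 15 of the 22 control UMIs from 1 cell and 1 UMI in AdipoΔ/Δ members. Gzma was at 0.237 and 18.3 of the Ly6C low level, with 203 of 204 AdipoΔ/Δ UMIs from 1 cell.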

How the results depend on the processing

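The smaller share of members in the AdipoΔ/Δ library held under 8 alternatives, with ratios from 0.480 to 0.637. No paired analysis was possible because each group had 1 library. These alternatives were chosen after seeing the data: without the member with the most UMIs of each library, and without members with at least 1% of UMIs from MHC class II genes.

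The percentage of panel UMIs from the Ly6C high side depended on the definition. In control members (37.4) it was 39.2 with at least 500 genes, 33.2 with at least 3 non-classical UMIs, 42.1 with at least 2 Ly6c2 UMIs, 50.6 with the rule on thinned cells, 24.0 without deep members (over 2 times the Ly6C low median UMIs), 36.2 without class II-rich members, 58.4 with 2-fold panels and 88.8 with fixed lists. In AdipoΔ/Δ members (27.3) it was 23.6 with 3 non-classical UMIs, 30.9 with 2 Ly6c2 UMIs, 46.2 on thinned cells, 29.6 without members closest to other types, 18.9 without deep members, 37.4 without class II-rich members, 54.8 with 2-fold panels and 90.0 with fixed lists.

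Counts of genes moved too. Above Ly6C high there were 267 at a fold of 1.5 and 49 with the minimum of UMIs doubled. Below Ly6C high there were 53 with 3 non-classical UMIs, 76 on thinned cells, 116 without deep members, 127 at 1.5-fold and 8 with the minimum doubled. Above Ly6C low there were 26 without deep members and 288 at 1.5-fold, and below it 431 at 1.5-fold and 80 with the minimum doubled. Of interferon-stimulated genes, 3 were above Ly6C low without deep members. Between libraries, 21 were higher on thinned cells, 19 without deep members, 345 at 1.5-fold and 27 with the minimum doubled, and 17, 19, 174 and 11 were lower. Interferon-stimulated genes higher in AdipoΔ/Δ members were 8 with 2 Ly6c2 UMIs, 2 on thinned cells, 1 without deep members, 3 without class II-rich members and 13 at 1.5-fold.

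Some log2 ratios turned. Over Ly6C high, these were Ccl2 in AdipoΔ/Δ on thinned cells (2.07), Cd74 in AdipoΔ/Δ without deep members (-0.0298) and without class II-rich members (-0.28), Cdc42ep2 in control on thinned cells (-0.73), and Lyz1 in control on thinned cells (-3.19) and without deep members (-1.93) and in AdipoΔ/Δ with 2 Ly6c2 UMIs (-0.52). Over Ly6C low, on thinned cells, these were Cd36 (0.45) and Mgst1 (-0.0891) in AdipoΔ/Δ. Without deep members they were Fpr1 in control (0.25), and Hes1 (0.0560), S1pr4 (0.74) and Stat2 (-1.55) in AdipoΔ/Δ. Between libraries, on thinned cells, they were Cdc42ep2 (0.20), Ifi213 (-0.26), Ms4a4b (-0.39) and Rnaset2a (0.61). Without deep members they were Apoe (-0.44), Id2 (-1.66) and Ms4a4b (-0.0189). Gzma turned with 2 Ly6c2 UMIs (-0.32), without members closest to other types (-1.03) and without the member with most UMIs (-1.15), and Id2 without members closest to other types (-0.0857). Other gene ratios kept their direction. For all these shifts, the cause was not tested.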
